A study of Mus musculus with 30 samples.

Results

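The gastrocnemius, a fast muscle of the calf, was compared gene by gene between Mtm1-/y mice and their WT littermates. The comparison took every library whose labels give the gastrocnemius as the tissue, which is 8 of the 30 libraries of the series, 4 from Mtm1-/y and 4 from WT mice. All of these mice were males of a pure 129Pas background and 5 weeks old, and the labels name no drug, vector or further allele in either group. A library was made from the whole muscle of a mouse, and the methods count 4 mice in each of these groups. The sources call the mutant an Mtm1 knock-out and name no Cre line or promoter, and the exons that the allele lacks are not given in the sources used here. In RNA from a whole muscle, a smaller number of cells of a type and less RNA per cell cannot be told apart, and this holds for every gene below.

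Mtm1 encodes myotubularin, a phosphatase that removes a phosphate from the phosphoinositides PI3P and PI(3,5)P2 on endosomal membranes. Its loss causes X-linked myotubular myopathy, a severe congenital muscle disease in which muscle fibres are small, nuclei lie in the centre of the fibre and the triads are disorganised. Triads are the junctions of transverse tubules and sarcoplasmic reticulum at which the voltage sensor of the fibre surface opens the calcium release channel.

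The 8 libraries held 29641256 to 38588917 counts over 36103 annotated genes, of which 15456 had enough counts to be tested. Levels are given as CPM, counts relative to the library total, scaled with edgeR's TMM factors, which assume that most genes do not differ. Group levels are means ± SD of 4 libraries. Log2 fold changes (log2FC) are Mtm1-/y over WT, given with or ± the standard error (SE) of edgeR's quasi-likelihood fit, and p-values are adjusted over all 15456 genes by the Benjamini-Hochberg method. A gene was called when its adjusted p was under 0.05 and its log2FC was beyond 1 in either direction, and a gene is said to have risen or fallen when its adjusted p was under 0.05.

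The gastrocnemius differed broadly between the genotypes, and more genes were called higher than lower. In the Mtm1-/y muscle 748 genes were called higher and 276 lower, which is 4.84% and 1.79% of the genes tested, or 6.63% in all. Without the fold limit 2173 genes rose and 2306 fell, which is 14.1% and 14.9%. The counts of gene groups below are set beside these shares. The groups and their members were chosen with earlier results of these data known. A count above the share therefore describes the list and is not a test of the group. Some genes belong to several groups, so the counts of different groups are not separate results. Counts of 1 or 2 members often changed by 1 or 2 when a library was left out, which is not repeated for each group. Of the called genes, 211 had a log2FC over 2 and 45 one below -2. The median log2FC of the called genes was 1.55 for rises and -1.33 for falls. Among all tested genes 4747, or 30.7%, had no overlap between the genotypes, and 686 of the called rises and 250 of the called falls were among them. Pearson's r between log2 CPM profiles was 0.992 to 0.994 among WT libraries, 0.984 to 0.993 among Mtm1-/y libraries and 0.971 to 0.981 between genotypes.

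**Figure D1:**
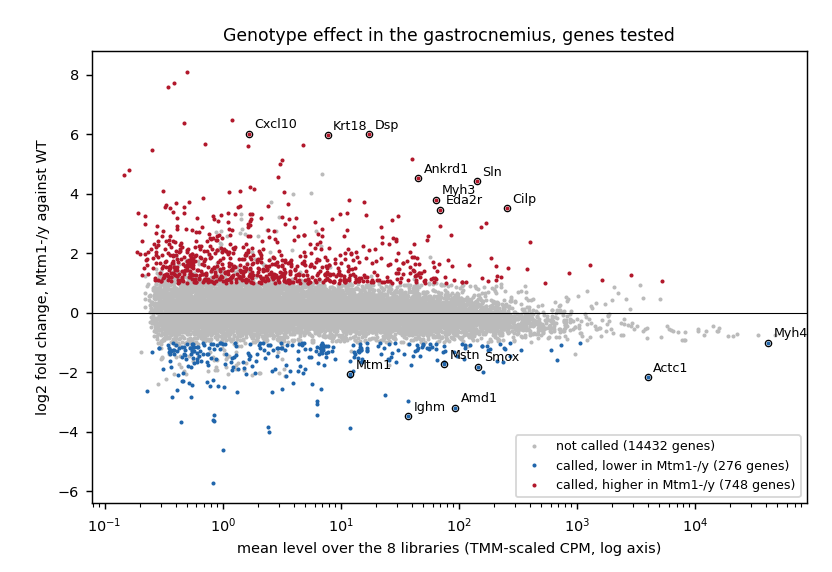
Log2 fold change of Mtm1-/y over WT gastrocnemius (vertical axis) against the mean level in CPM over the 8 libraries on a log scale (horizontal axis), with a point per tested gene, of 15456 in all. The 748 genes called higher and the 276 called lower are coloured.

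A few transcripts took up less of the mutant libraries, and this bears on every small fold change. The 10 most abundant genes held 26.5 to 28.6% of the counts in WT and 19.9 to 21.5% in Mtm1-/y, and the TMM factors were 0.855 to 0.932 in WT and 1.1 to 1.16 in Mtm1-/y. With library totals as the only scaling, the median log2FC of all genes moved from 0.02 to 0.35, and the calls became 1600 higher and 128 lower. The share of higher calls was then 92.6% against 73.0% with TMM. Falls smaller than about this shift are falls relative to the typical gene. Medians that changed sign with library totals are given with their groups below, except for groups whose median lay close to 0. Those were the 3-phosphoinositide kinases and effectors (-0.02 to 0.32), the centronuclear myopathy genes (-0.06 to 0.27), the sarcomeric myosin heavy chains (-0.07 to 0.25), the slow sarcomere genes (-0.07 to 0.24), the ubiquitin ligases (-0.08 to 0.26), the autophagy genes (-0.04 to 0.29), the ion channels (-0.05 to 0.29) and the polyamine genes (-0.11 to 0.23).

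Mtm1-/y replicate 3 stood apart from the other mutant libraries and was kept. It held 3946 counts of Krt5 and 1386 of Krt14, keratins of the epidermis, where the other 7 libraries held at most 21 and 11. The summed level of Krt5, Krt14, Krt1, Krt10, Lor, Sfn, Dsp and Perp, genes picked after their values were seen, was 423 CPM in this library against 3.75 to 5.51 CPM in WT and 9.25, 13.9 and 16.2 CPM in the other Mtm1-/y libraries. The desmosome gene Dsp had a log2FC of 6.01 (adjusted p = 0.012) with this library and 3.44 (adjusted p = 0.0026) without it, and Perp had 3.78 (adjusted p = 0.026) and 1.39 (adjusted p = 0.0012). With this library kept and any single WT library left out, the adjusted p of Perp was 0.055 to 0.072. Without this library 736 genes were called higher and 373 lower, and 655 and 242 of them were also called with it. Its part in the other results was not tested beyond the values without it, which are given where a named gene crossed the threshold or a count above 2 moved by over 1.5 times.

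Mtm1 itself was low in every mutant library. It had 19.3, 19.2, 20.6 and 18.8 CPM in the WT and 3.98, 4.87, 4.41 and 5.33 CPM in the Mtm1-/y libraries (log2FC -2.07, SE 0.10, adjusted p = 2.1e-05), and the gene lies at chrX:71210767-71315691 (mm10). The lowest WT library was above the highest Mtm1-/y library, and from which exons the remaining mutant counts came was not tested. Of 11 tested genes within 1 Mb of Mtm1, none was called and 1 fell. That gene was Tmem185a, picked after its values were seen, with a log2FC of -0.71 and an SE of 0.07 (adjusted p = 0.00021). On chromosome X as a whole 26 of 511 genes were called higher and 9 lower, or 6.85% together, next to 6.63% of all genes.

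The other myotubularin-related phosphatases moved little. Over the 14 tested members of the family, Mtm1 included, 3 rose and 7 fell, with a median log2FC of -0.15 that became 0.18 with library totals. The number that fell was 4 without WT replicate 1 or 2 or without Mtm1-/y replicate 1 or 3, and the number that rose was 1 in 6 of the 8 fits that left out a library. Mtmr3 fell from 115 ± 9.41 to 86.8 ± 3.42 CPM (log2FC -0.40 ± 0.07) and Mtmr11, whose phosphatase domain is inactive, rose from 6.29 ± 0.826 to 9.61 ± 1.87 CPM (log2FC 0.61 ± 0.15). Mtmr2, a close relative of Mtm1, had a log2FC of -0.22 with an adjusted p of 0.047, which was 0.084 to 0.12 in the 6 fits without WT replicate 1, 2 or 3 or Mtm1-/y replicate 1, 3 or 4. Among 16 kinases and effectors of the 3-phosphoinositides 2 rose and 1 fell. Vac14, the scaffold of the complex that makes PI(3,5)P2, rose by 0.60 ± 0.09 log2 units, and the late endosome GTPase Rab7 fell (log2FC -0.51 ± 0.08). Pik3c2b, a class II kinase that produces PI3P, had 38.4, 48.4, 42.7 and 38.2 CPM in the WT and 45.8, 45.4, 34.4 and 42.6 CPM in the Mtm1-/y libraries with overlapping genotypes (log2FC 0.01, SE 0.11, adjusted p = 0.98).

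The genes behind the other centronuclear myopathies did not share a direction. Of 15 tested genes of that disease group and its close relatives 2 rose and 5 fell. Dnm2, the dynamin whose activity is raised in a dominant form, had 62.4, 53.3, 55.4 and 60.5 CPM in the WT and 69, 62.1, 58 and 61.7 CPM in the Mtm1-/y libraries (log2FC 0.11, SE 0.08, adjusted p = 0.29). Speg, a kinase that binds myotubularin, fell from 427 ± 48.4 to 315 ± 30.2 CPM (log2FC -0.44, SE 0.10, adjusted p = 0.0097), and Ttn, the giant spring protein of the sarcomere, fell from 15062 ± 1368 to 9807 ± 349 CPM (log2FC -0.62, SE 0.09, adjusted p = 0.0012). Neither of the latter showed an overlap between genotypes.

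**Figure D2:**
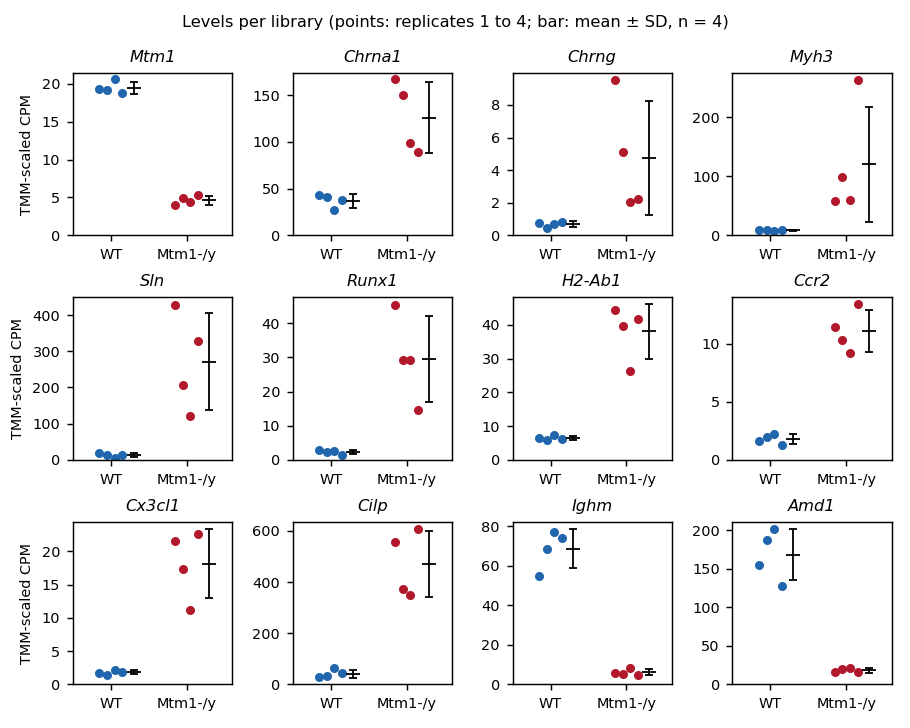
Level in CPM (vertical axes, linear from 0) of 12 genes in each of the 4 WT (blue) and 4 Mtm1-/y (red) gastrocnemius libraries, a point per library, with the mean and SD in black. Mtm1, Ighm and Amd1 sit lower in every Mtm1-/y library, and Chrna1, Chrng, Myh3, Sln, Runx1, H2-Ab1, Ccr2, Cx3cl1 and Cilp sit higher in every one.

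All 5 subunits of the muscle acetylcholine receptor rose, at a background of 14.1% of genes that rose. The receptor opens the fibre to sodium at the neuromuscular junction. Adult fibres build it with the epsilon subunit, and fetal or denervated fibres use the gamma subunit and also make receptor outside the junction. The 250 bases before the start site are shown for the alpha, gamma and epsilon genes because their rises differed in size. RefSeq's table for GRCm38.p6 held 4 of the 5 genes. Chrna1 is at chr2:73580339-73580588 on the minus strand, Chrng at chr1:87205561-87205810 on the plus strand and Chrne at chr11:70619195-70619444 on the minus strand, each printed 5′ to 3′ on the strand of the gene. Capitals mark the E box CAGCTG, the letters that myogenic factors such as myogenin prefer, and the N box CCGGAA, searched on both strands.
Chrna1: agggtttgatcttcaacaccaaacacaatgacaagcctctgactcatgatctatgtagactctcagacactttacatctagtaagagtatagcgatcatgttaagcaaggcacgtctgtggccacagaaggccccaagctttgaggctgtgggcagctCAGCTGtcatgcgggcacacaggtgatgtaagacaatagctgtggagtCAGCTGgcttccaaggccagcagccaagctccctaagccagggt
Chrng: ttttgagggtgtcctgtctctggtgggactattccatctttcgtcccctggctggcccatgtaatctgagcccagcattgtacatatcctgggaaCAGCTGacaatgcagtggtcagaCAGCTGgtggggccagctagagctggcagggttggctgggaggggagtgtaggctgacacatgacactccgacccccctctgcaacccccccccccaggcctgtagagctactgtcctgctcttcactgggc
Chrne: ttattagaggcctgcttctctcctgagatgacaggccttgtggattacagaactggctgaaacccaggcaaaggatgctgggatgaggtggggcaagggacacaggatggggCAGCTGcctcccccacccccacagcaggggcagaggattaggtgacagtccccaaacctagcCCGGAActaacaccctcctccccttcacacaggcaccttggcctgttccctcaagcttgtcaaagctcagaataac
CAGCTG began 92 and 44 bases before the start of Chrna1, 155 and 132 bases before that of Chrng and 138 bases before that of Chrne, where CCGGAA began at 76. The window of Chrnb1 held neither. The looser E box CANNTG occurred 3 times each in Chrna1, Chrnb1 and Chrng and 1 time in Chrne. Over 32851 promoter windows of the same length, 13% held CAGCTG, 12% held CCGGAA and 66.2% held CANNTG. The letters were chosen after the sequences were seen. A match is a description of the letters and not a site shown to be bound.

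The gamma subunit gene Chrng was nearly silent in WT muscle and measurable in each mutant. It had 0.779, 0.441, 0.719 and 0.825 CPM in the WT and 9.52, 5.14, 2.04 and 2.23 CPM in the Mtm1-/y libraries (log2FC 2.76, SE 0.51, adjusted p = 0.0034). Replicates 1 and 2 of Mtm1-/y were higher than replicates 3 and 4, and none reached into the WT range. Chrnd, the delta subunit gene beside it on chromosome 1, had 6.4, 3.71, 5.87 and 5.55 CPM in WT and 45.4, 32.1, 12.6 and 13.2 CPM in Mtm1-/y (log2FC 2.26, SE 0.41, adjusted p = 0.0032), with the same order of libraries at the top. Chrna1, the subunit that holds most of the acetylcholine site, had 42.9, 40.6, 26.7 and 38 CPM in WT and 167, 150, 98.5 and 88.8 CPM in Mtm1-/y (log2FC 1.77, SE 0.22, adjusted p = 0.00055). Chrnb1 rose from 57.4 ± 8.71 to 123 ± 14.5 CPM (log2FC 1.1, SE 0.12, adjusted p = 0.00035). The adult subunit gene Chrne rose least, with 31.2, 30, 26.5 and 29 CPM in WT and 48.2, 38.7, 31.3 and 50.1 CPM in Mtm1-/y (log2FC 0.53, SE 0.14, adjusted p = 0.018), and its adjusted p was 0.052 without WT replicate 3 (log2FC 0.48).

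Per kilobase of exon, the order of the subunits was otherwise alike in both genotypes. Chrnb1 was the most abundant, at 22.7 ± 3.44 CPM per kilobase in WT and 48.8 ± 5.74 in Mtm1-/y (SD, n = 4). Chrne followed in WT (17.3 ± 1.18) but lay beside Chrna1 in the mutants (24.9 ± 5.17 and 28.7 ± 8.71), where these neighbours did not differ beyond their spread. Chrng made up 1.00, 0.592, 1.09 and 1.14% of Chrng plus Chrne per kilobase in WT and 7.42, 5.12, 2.58 and 1.78% in Mtm1-/y (two-sided exact permutation test, p = 0.0286, adjusted over 4 shares p = 0.0381). The groups did not overlap, and 0.0286 is the smallest p that 4 against 4 libraries allow.

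Most of the listed genes that respond to loss of the nerve rose, in a list chosen with earlier results of these data known. Of 22 such genes 16 rose and 1 fell, beside 14.1% and 14.9% of all genes, with a median log2FC of 1.58 next to 0.02 for all genes. The transcription factor Runx1, which sustains denervated fibres, had 2.78, 2.24, 2.49 and 1.36 CPM in the WT and 45.4, 29.3, 29.1 and 14.7 CPM in the Mtm1-/y libraries (log2FC 3.73, SE 0.35, adjusted p = 0.00016). The growth factor Gdf5, a BMP ligand, had 0.167, 0.147, 0.15 and 0.222 CPM in WT and 12, 4.54, 5.94 and 2.18 CPM in Mtm1-/y (log2FC 5.14, SE 0.57, adjusted p = 0.00034). Both separated the genotypes completely. Ncam1, the neural cell adhesion molecule that spreads over denervated fibres, rose by 1.77 ± 0.16 log2 units and Gadd45a, a denervation-induced stress gene, by 2.32 ± 0.24 log2 units. Hdac4, a deacetylase that links activity to receptor transcription, rose by 0.59 ± 0.13 log2 units. The member that fell was Fgfbp1, a secreted carrier of fibroblast growth factors made by muscle, with 13.3, 10, 11.7 and 9.55 CPM in WT and 0.983, 1.57, 2.12 and 1.05 CPM in Mtm1-/y (log2FC -2.97, SE 0.24, adjusted p = 8.2e-05).

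The organisers of the junction moved less than the receptor. Of 17 tested, 7 rose and none fell, with a median of 0.26. Erbb2 and Erbb3, the neuregulin receptors, rose by 1.11 ± 0.18 and 0.77 ± 0.16 log2 units, and Colq, which anchors acetylcholinesterase, rose by 0.79 ± 0.14 log2 units. Markers of Schwann cells, which cover the nerve terminal, gave no call in either direction among 10 genes. All 10 had a positive log2FC, with a median of 0.49. Their summed level overlapped, at 164 to 551 CPM in WT and 240 to 675 CPM in Mtm1-/y.

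The myosin heavy chains shifted away from the fastest form. Myh4, which encodes the IIb chain of the fastest glycolytic fibres, had 50304, 64699, 52584 and 57056 CPM in the WT and 23606, 23874, 30936 and 33736 CPM in the Mtm1-/y libraries (log2FC -1.0, SE 0.15, adjusted p = 0.0012). Myh1, the IIx chain, rose from 3372 ± 718 to 7105 ± 1006 CPM (log2FC 1.08, SE 0.16, adjusted p = 0.0013), and Myh2, the IIa chain of fast oxidative fibres, from 2385 ± 316 to 4535 ± 1034 CPM (log2FC 0.93, SE 0.17, adjusted p = 0.0034). The groups were separate for each of the 3 genes. Per kilobase of exon, Myh4 made up 86.7, 92.5, 89.8 and 90.6% of all sarcomeric heavy chain transcripts in WT and 64.5, 65.5, 78.4 and 74.9% in Mtm1-/y, a difference of -19.1 percentage points (two-sided exact permutation test, p = 0.0286, adjusted p = 0.0381). The Myh1 share was 5.21 ± 1.49% and 17.3 ± 3.81%, and the Myh2 share 3.26 ± 0.627% and 9.80 ± 2.62% (SD, n = 4). IIb remained the main form in every mutant library.

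**Figure D3:**
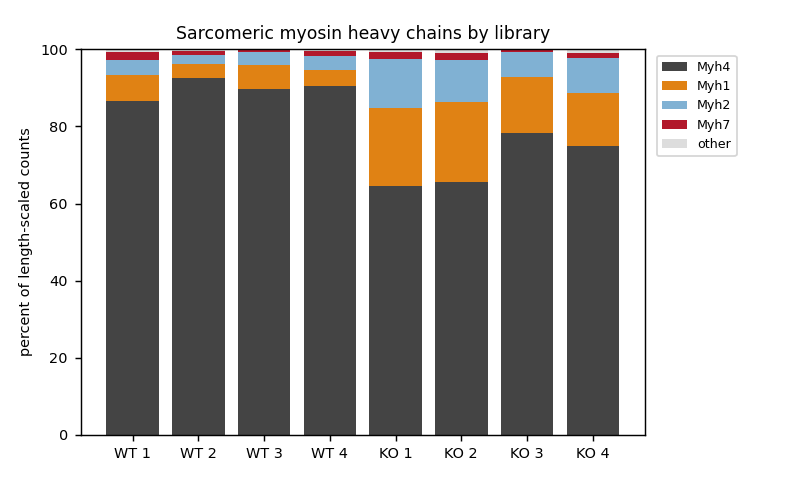
Percent of sarcomeric myosin heavy chain transcripts per kilobase of exon (vertical axis) held by each heavy chain gene in each of the 8 gastrocnemius libraries (stacked bars, with KO for Mtm1-/y). Myh4 fills 86.7 to 92.5% of the WT bars and 64.5 to 78.4% of the Mtm1-/y bars.

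The slow chain and the developmental chains behaved differently. Myh7, the chain of slow fibres, had 1730, 1048, 442 and 1180 CPM in the WT and 930, 963, 226 and 864 CPM in the Mtm1-/y libraries (log2FC -0.56, SE 0.47, adjusted p = 0.39), and its share was 1.24 ± 0.648% and 1.34 ± 0.665%. WT replicate 3 and Mtm1-/y replicate 3 were the lowest of their groups, and without the latter the log2FC was -0.25. The embryonic chain Myh3 had 9.02, 8.48, 7.22 and 9.51 CPM in WT and 59.2, 99.7, 59.9 and 263 CPM in Mtm1-/y (log2FC 3.81, SE 0.49, adjusted p = 0.00058), with replicate 4 above the other mutants. The perinatal chain Myh8 had 11.9, 12.1, 11.1 and 12.1 CPM in WT and 21, 23.5, 23.1 and 29.9 CPM in Mtm1-/y (log2FC 1.05, SE 0.11, adjusted p = 0.00024). The 2 developmental chains stayed small in amount, with shares of 0.291 ± 0.200% and 0.0315 ± 0.00225% in the mutants.

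These genes sit next to each other on chromosome 11 (mm10), and neighbours moved in opposite directions. Myh3 lies at chr11:67078300-67102291, Myh2 at chr11:67171027-67197517, Myh1 at chr11:67200052-67224575, Myh4 at chr11:67238029-67260446 and Myh8 at chr11:67277124-67308634. Myh3, Myh2, Myh1 and Myh8 rose, and Myh4 between the last pair fell. The long noncoding RNA 2310065F04Rik, at chr11:67112461-67120080 between Myh3 and Myh2, had 215, 264, 284 and 276 CPM in WT and 57.9, 60.7, 74.9 and 65.5 CPM in Mtm1-/y (log2FC -2.0, SE 0.11, adjusted p = 2.5e-05). Heavy chain genes resemble each other, and only uniquely aligned reads were counted.

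The other fast sarcomere genes fell together with Myh4. Of 17 genes of fast fibres 15 fell, and the 2 that rose were Myh1 and Myh2. The median log2FC was -0.75 (-0.41 with library totals). The fast alpha-actinin Actn3 fell from 10675 ± 1115 to 5652 ± 529 CPM (log2FC -0.92, SE 0.11, adjusted p = 0.00043), and the myosin-binding protein Mybpc2 and the fast troponin T Tnnt3 fell with log2FC values of -0.91 ± 0.12 and -0.79 ± 0.10. Parvalbumin (Pvalb), the soluble calcium buffer of fast fibres, fell from 15088 ± 2039 to 8920 ± 1328 CPM. None of these overlapped between genotypes. Among 15 slow sarcomere genes 4 rose and 1 fell, with a median of -0.07. Actn2 rose by 0.88 ± 0.13 log2 units, the slow myosin-binding protein Mybpc1 by 0.65 ± 0.12 log2 units and the slow calsequestrin Casq2 by 0.97 ± 0.18 log2 units.

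In a list of developmental and heart forms of sarcomere genes, 10 of 12 tested members rose and 1 fell. The list included Myh3 and Myh8 but also Ncam1 and Nes, which are not sarcomere genes. Nes and Vim, intermediate filament genes of immature fibres, rose by 1.18 ± 0.14 and 0.71 ± 0.09 log2 units. The exception was Actc1, cardiac alpha-actin, with 6820, 6916, 6208 and 6225 CPM in the WT and 358, 2083, 1296 and 2087 CPM in the Mtm1-/y libraries (log2FC -2.17, SE 0.44, adjusted p = 0.0052). It stood at about the same level in every WT library, and the mutants ranged widely below. Actc1 and the skeletal actin Acta1 have near-identical coding sequence, so that unique alignment can split their reads and the amount is uncertain. Acta1 fell as well, from 59345 ± 5773 to 35401 ± 2434 CPM (log2FC -0.75, SE 0.11, adjusted p = 0.0012). 2 noncoding genes at the Actc1 locus (chr2:114047282-114053548) fell with it. The antisense gene C130080G10Rik (chr2:114054335-114064868) had 24.6, 23.6, 24.7 and 17 CPM in WT and 0.551, 1.39, 2.9 and 1.27 CPM in Mtm1-/y (log2FC -3.89, SE 0.37, adjusted p = 0.00017), and A530058N18Rik (chr2:114013563-114068324), which spans both, had 5.82, 5.07, 4.4 and 3.39 CPM in WT and 0.0479, 0.242, 0.586 and 0.296 CPM in Mtm1-/y (log2FC -4.00, SE 0.46, adjusted p = 0.00038). The libraries were strand-specific, but the strand setting used in counting is not given in the sources used here, and overlapping genes are uncertain for that reason.

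Proteins that sense stretch at the Z-disc and titin were among the largest rises. Of 18 such genes 10 rose and 1 fell. The ankyrin repeat protein Ankrd1 had 3.12, 2.9, 6.89 and 2.19 CPM in the WT and 126, 54.9, 78.7 and 87.6 CPM in the Mtm1-/y libraries (log2FC 4.52, SE 0.38, adjusted p = 9.5e-05), and the muscle LIM protein Csrp3 had 175, 135, 54.3 and 155 CPM in WT and 1029, 523, 619 and 550 CPM in Mtm1-/y (log2FC 2.39, SE 0.35, adjusted p = 0.0011). Fhl1, a LIM protein that binds titin, rose from 1687 ± 337 to 4104 ± 951 CPM. Their relative Ankrd23 fell from 268 ± 18.1 to 168 ± 13.9 CPM (log2FC -0.67, SE 0.08, adjusted p = 0.00045), so that the ankyrin repeat members did not move as a set. Rrad, a small GTPase that restrains calcium channels, rose by 5.19 ± 0.52 log2 units, and Mustn1, a small nuclear protein of regenerating muscle, from 37.1 ± 6.14 to 301 ± 104 CPM (log2FC 3.02, SE 0.25, adjusted p = 9.5e-05).

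**Figure D4:**
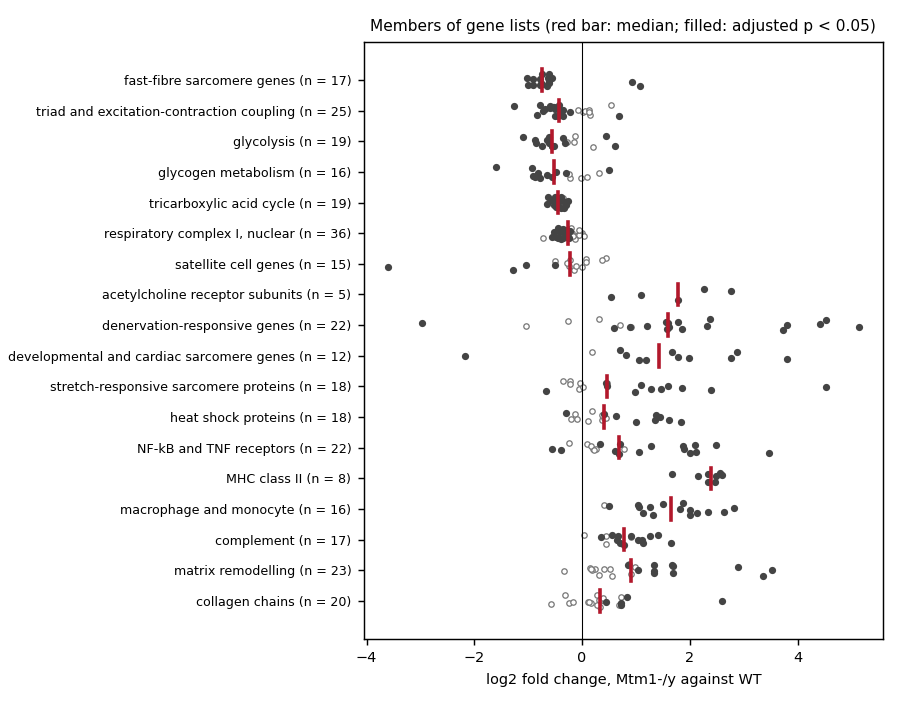
Log2 fold change of Mtm1-/y over WT gastrocnemius (horizontal axis) for each tested member of the gene groups (vertical axis), with a point per gene (filled where the adjusted p was under 0.05) and a red bar at the median of the group. The median was 2.40 for the 8 genes of the MHC class II list and 1.58 for the 22 denervation-responsive genes, and -0.75 for the 17 fast sarcomere genes.

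The triad genes fell by small amounts. Of 25 genes for triads and for the coupling of excitation to contraction, 17 fell and 1 rose, with a median log2FC of -0.42. With library totals 8 fell, 7 rose and the median was -0.08. Jph2 and Jph1, junctophilins that hold both membranes of the triad together, had 997, 1063, 941 and 1009 CPM in WT and 598, 641, 529 and 548 CPM in Mtm1-/y (log2FC -0.79, SE 0.08, adjusted p = 0.00023) and a log2FC of -0.69 ± 0.09. Casq1, the calcium-binding protein of the reticulum lumen, fell from 6659 ± 559 to 3758 ± 418 CPM (log2FC -0.83, SE 0.11, adjusted p = 0.00061). Ryr1, the calcium release channel, fell from 4660 ± 361 to 3256 ± 271 CPM (log2FC -0.52, SE 0.09, adjusted p = 0.0029), and Stac3, an adaptor of the voltage sensor, had a log2FC of -0.42 ± 0.06. The genotypes did not overlap for these genes. In the same muscles the 10 fibre markers had a median of -0.61, and their summed level was 201958 to 238379 CPM in WT and 125893 to 135869 CPM in Mtm1-/y. The markers include Ryr1 as well as the fast fibre genes Myh4 and Tnnt3, so they do not form a separate reference.

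The inhibitor of the calcium pump rose far more than any pump gene changed. Sarcolipin (Sln), a small peptide that uncouples the pump, had 18.5, 13.3, 4.79 and 14.1 CPM in the WT and 428, 207, 122 and 327 CPM in the Mtm1-/y libraries (log2FC 4.42, SE 0.48, adjusted p = 0.00032). Every mutant was above every WT library by a wide margin. The fast pump Atp2a1 fell from 42634 ± 3860 to 25386 ± 2836 CPM (log2FC -0.75, SE 0.12, adjusted p = 0.0014), and the slow pump Atp2a2 had 1061, 787, 420 and 752 CPM in WT and 564, 648, 274 and 583 CPM in Mtm1-/y (log2FC -0.55, SE 0.30, adjusted p = 0.2). Among the related peptides, myoregulin (Mrln) fell (log2FC -0.50 ± 0.11) and phospholamban (Pln) had a log2FC of 0.35 (adjusted p = 0.36). Per kilobase of exon, Sln was at 9.61 ± 4.34 CPM in WT and 206 ± 102 in Mtm1-/y beside 12262 ± 1110 and 7301 ± 816 for Atp2a1, and it passed Mrln (54.1 ± 5.23 and 38.3 ± 5.71) only in the mutants (SD, n = 4). Of the 16 pump and buffer genes 2 rose and 5 fell. The median was -0.21 and turned to 0.12 with library totals.

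Ion channels of the fibre surface moved both ways. Of 21 channel genes 5 rose and 9 fell, beside 14.1% and 14.9% of all genes. Only 2 rose without WT replicate 3 or Mtm1-/y replicate 1, and 3 without WT replicate 1, 2 or 4 or Mtm1-/y replicate 2. The adult sodium channel Scn4a fell from 620 ± 36.1 to 416 ± 26.6 CPM (log2FC -0.58, SE 0.07, adjusted p = 0.00062). Kcnn3, a calcium-activated potassium channel of immature and denervated fibres, had 6.37, 4.44, 5 and 5.11 CPM in WT and 37.6, 19.3, 17 and 12.9 CPM in Mtm1-/y (log2FC 2.05, SE 0.30, adjusted p = 0.0012). The potassium channels Kcna7 and Kcnj12 fell, with log2FC values of -0.88 ± 0.11 and -0.76 ± 0.11. Cacna2d4, an accessory calcium channel subunit, was among the largest falls, from 11.4 ± 2.93 to 1.06 ± 0.379 CPM (log2FC -3.43, SE 0.27, adjusted p = 7.2e-05).

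Genes that burn glucose and glycogen fell in most cases. In glycolysis 13 of 19 genes fell and 2 rose, with a median of -0.55 (-0.21 with library totals, 9 fell). Gpd1, which passes glycolytic electrons to the mitochondrion, fell from 997 ± 109 to 464 ± 93.1 CPM (log2FC -1.1, SE 0.14, adjusted p = 0.00066), and the muscle mutase Pgam2 had a log2FC of -0.74 ± 0.09. In glycogen metabolism 10 of 16 fell and 1 rose. Muscle glycogen phosphorylase Pygm had 9892, 11434, 9969 and 11479 CPM in WT and 5085, 5471, 5579 and 6563 CPM in Mtm1-/y (log2FC -0.91, SE 0.11, adjusted p = 0.00041), and Pgm1 and Phka1 fell with log2FC values of -0.93 ± 0.09 and -0.87 ± 0.09. The genotypes did not overlap for these 5 genes. The glucose transporter Slc2a3, of low level in muscle, was among the largest falls, from 11.7 ± 2.85 to 2 ± 0.667 CPM.

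Mitochondrial genes fell in most cases, and for the nuclear genes of the respiratory complexes the direction depended on the scaling. In the tricarboxylic acid cycle 18 of 19 genes fell, with a median of -0.45, and with library totals 5 fell and the median was -0.11. Suclg1 fell from 330 ± 14.6 to 209 ± 21.5 CPM (log2FC -0.66, SE 0.08, adjusted p = 0.00051), and Idh3a had a log2FC of -0.64 ± 0.08. Of 36 nuclear genes of respiratory complex I 20 fell and none rose, but with library totals none fell, 7 rose and the median went from -0.27 to 0.07. For complexes II to V the counts were 22 fallen and 2 risen of 37, and 3 and 5 with library totals, where the median again went from -0.27 to 0.07. All 7 tested mitochondrially encoded genes fell, with a median of -0.55, and with library totals 1 did. mt-Cytb was not past the threshold without Mtm1-/y replicate 3 (adjusted p = 0.053). Of the other mitochondrially encoded genes 5 had 0 to 3 counts in each library, and only uniquely aligned reads were counted. As a share of all counts the mitochondrially encoded genes held 6.29 ± 0.762% in WT and 5.52 ± 0.516% in Mtm1-/y. The difference was -0.77 percentage points, and the groups overlapped (exact permutation test, p = 0.143). The coactivator Ppargc1a and the fatty acid regulator Ppara fell with log2FC values of -0.60 ± 0.13 and -0.90 ± 0.13.

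Amd1 and Smox of polyamine metabolism fell steeply. Polyamines are small cations made from ornithine. Amd1, the decarboxylase that supplies the aminopropyl group, had 155, 188, 202 and 128 CPM in the WT and 15.9, 20.1, 21.6 and 15.5 CPM in the Mtm1-/y libraries (log2FC -3.20, SE 0.17, adjusted p = 2.3e-05), and spermine oxidase (Smox) had 217, 253, 230 and 214 CPM in WT and 55.9, 60.8, 55.3 and 87.1 CPM in Mtm1-/y (log2FC -1.82, SE 0.14, adjusted p = 8.2e-05). The genotypes did not overlap for either gene. Spermine synthase (Sms) fell from 78.6 ± 10.3 to 57.3 ± 4.93 CPM (log2FC -0.45, SE 0.10, adjusted p = 0.0084), and Sat1, which acetylates polyamines for export, rose from 20.2 ± 2.37 to 27.9 ± 3.76 CPM (log2FC 0.47, SE 0.12, adjusted p = 0.015). The entry enzyme Odc1 had 36.1, 49.5, 31.3 and 38.3 CPM in WT and 43.6, 35.5, 39 and 24.3 CPM in Mtm1-/y, with overlapping groups (log2FC -0.12, SE 0.18, adjusted p = 0.65). Of 13 tested genes 1 rose and 4 fell. The fourth fall was the Amd1 copy Amd2, at 0.168 to 3.12 CPM, whose reads cannot be kept safely apart from those of Amd1. Arg1 was at 0.0605 to 0.168 CPM in 3 mutants and at 3.01 CPM in replicate 3, and its log2FC was 0.07 with and -2.84 (adjusted p = 0.0031) without that library.

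Myostatin fell and its antagonist rose. Myostatin (Mstn), the secreted brake on muscle mass, had 96.6, 154, 112 and 101 CPM in the WT and 30, 36.9, 45.2 and 29.1 CPM in the Mtm1-/y libraries (log2FC -1.72, SE 0.18, adjusted p = 0.00026), and its antagonist follistatin (Fst) had 6.18, 7.64, 8.57 and 6.12 CPM in WT and 26.2, 24.3, 19.9 and 33.4 CPM in Mtm1-/y (log2FC 1.86, SE 0.17, adjusted p = 0.00015). The genotypes were separate for both. Id2, a target of BMP signals, rose from 2.87 ± 0.508 to 9.47 ± 0.972 CPM (log2FC 1.72, SE 0.14, adjusted p = 9.5e-05). Of 26 genes of the myostatin, activin and BMP pathways 8 rose and 4 fell. Of 24 genes of the IGF1 and Akt pathway 5 rose and 2 fell, beside 14.1% and 14.9% of all genes, and the binding protein Igfbp2 rose by 2.10 ± 0.33 log2 units and the insulin receptor gene Insr fell (log2FC -0.40 ± 0.08). Arrdc2, an alpha-arrestin, fell from 143 ± 36.6 to 52.4 ± 23.3 CPM (log2FC -1.45, SE 0.29, adjusted p = 0.0052) and was the only call among 5 tested members of its family.

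Some genes of satellite cells fell, and some of fusion and differentiation rose. Satellite cells are the stem cells beside the fibre, and of 15 of their genes 4 fell and none rose, with a median of -0.22 that became 0.11 with library totals. Pax7, which defines the cells, had 5.46, 6.76, 5.78 and 5.9 CPM in WT and 2.9, 3.39, 3.18 and 2.1 CPM in Mtm1-/y (log2FC -1.05, SE 0.16, adjusted p = 0.0014). The calcitonin receptor Calcr, a mark of their quiescent state, had 1.59, 1.32, 1.8 and 1.46 CPM in WT and 0.0959, 0.242, 0.0558 and 0.108 CPM in Mtm1-/y (log2FC -3.61, SE 0.35, adjusted p = 0.00018), and Fgfr4 fell from 8.84 ± 0.499 to 3.62 ± 0.673 CPM. Myf6, the myogenic factor of mature fibres, rose from 96 ± 15.4 to 181 ± 15.3 CPM (log2FC 0.91, SE 0.11, adjusted p = 0.00055), and the fusion peptide Mymx, at most 0.294 CPM in WT, reached 0.726 to 2.73 CPM (log2FC 3.35, SE 0.51, adjusted p = 0.0013). Sox6, a repressor of slow genes, fell (log2FC -0.78 ± 0.07).

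The cell cycle list had a positive median, but its size and the calls depended on single libraries. Of 20 genes of mitosis and DNA replication 6 rose and none fell. The median was 0.96 with all libraries and 0.58 without Mtm1-/y replicate 3. The number that rose was 10 without Mtm1-/y replicate 1, 2 without Mtm1-/y replicate 3, 3 without WT replicate 2 and 1 without WT replicate 3 or 4. Rrm2, a subunit of ribonucleotide reductase, had 3.9, 2.46, 3.18 and 2.38 CPM in WT and 4.79, 5.32, 6.08 and 4.77 CPM in Mtm1-/y (log2FC 0.81, SE 0.18, adjusted p = 0.008). These levels are low, and leaving out a library often moves them across the threshold.

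Protein breakdown and stress genes gave mixed groups. Of 16 muscle ubiquitin ligases 4 rose and 6 fell. Fbxo30 rose by 0.83 ± 0.11 log2 units and Asb2 fell (log2FC -0.81 ± 0.11). Autophagy genes rose in 4 and fell in 4 of 26 cases, which is near the 14.1% and 14.9% of all genes, and 2 rose without WT replicate 1. They included Gabarapl1 (log2FC 0.50 ± 0.08) and the initiating kinase Ulk2 (log2FC -0.72 ± 0.07). Of 31 proteasome subunits 8 rose, and 4 or 5 did when any WT library or Mtm1-/y replicate 1 was left out. Of 24 lysosomal genes 13 rose and 1 fell, and 8 rose without WT replicate 1 or 2. Cathepsin S (Ctss) had 2, 1.62, 2.07 and 1.52 CPM in WT and 11.4, 7.83, 8.76 and 8.51 CPM in Mtm1-/y (log2FC 2.33, SE 0.16, adjusted p = 4.2e-05), cathepsin L (Ctsl) rose from 138 ± 10.1 to 247 ± 33.2 CPM and the membrane protein Cd63 from 34.6 ± 0.383 to 69.5 ± 7.24 CPM (log2FC 1.0, SE 0.08, adjusted p = 7.2e-05). The last 3 had no overlap between genotypes.

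Small heat shock proteins and p53-responsive genes rose in larger steps. Of 18 heat shock genes 8 rose and 1 fell. Hspb7 had 793, 577, 431 and 719 CPM in WT and 2849, 1549, 1756 and 1591 CPM in Mtm1-/y (log2FC 1.62, SE 0.24, adjusted p = 0.0011), and Cryab, the crystallin that guards desmin, rose from 480 ± 51.5 to 1224 ± 352 CPM (log2FC 1.35, SE 0.19, adjusted p = 0.00085). Of 20 p53 and Gadd45 genes 11 rose and 3 fell. Eda2r, a TNF-receptor family member that binds ectodysplasin A2, had 11.3, 9.22, 12.9 and 12.5 CPM in WT and 178, 122, 103 and 105 CPM in Mtm1-/y (log2FC 3.47, SE 0.19, adjusted p = 2.5e-05), and the cycle inhibitor Cdkn1a had 47.2, 46.9, 60.2 and 87.3 CPM in WT and 235, 230, 143 and 124 CPM in Mtm1-/y (log2FC 1.6, SE 0.26, adjusted p = 0.0018). Ccng1 of the same list fell from 1315 ± 37.7 to 820 ± 126 CPM (log2FC -0.68, SE 0.11, adjusted p = 0.0014), so the list did not move in a single direction. Among the metal-binding metallothioneins, Mt2 had 27, 11.8, 21.7 and 36.6 CPM in WT and 124, 156, 228 and 88.4 CPM in Mtm1-/y (log2FC 2.61, SE 0.36, adjusted p = 0.00085) and Mt3 rose from 3 ± 0.929 to 29.8 ± 16.8 CPM. Of 18 genes of endoplasmic reticulum stress 9 rose, none past a log2FC of 1. Of 45 cytosolic ribosomal protein genes 5 rose and 2 fell, beside 14.1% and 14.9% of all genes, and 3 rose without WT replicate 1 or Mtm1-/y replicate 1. Their median log2FC was 0.16. Together they held 0.281 ± 0.0128% of counts in WT and 0.367 ± 0.0288% in Mtm1-/y (exact permutation test, p = 0.0286, adjusted p = 0.0381). That share is of library totals, with which the median log2FC of all genes was 0.35, so it carries the shift of the typical gene.

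Keratins and a tubulin that were low in WT muscle rose steeply. Krt18 and Krt8, the paired keratins of simple epithelia, had 0.278, 0.184, 0.24 and 0.254 CPM in WT and 27, 12.4, 12.5 and 9.34 CPM in Mtm1-/y (log2FC 5.97, SE 0.42, adjusted p = 4.3e-05) and 0.0835, 0.0735, 0 and 0.0951 CPM in WT and 5.54, 2.81, 2.57 and 2.05 CPM in Mtm1-/y (log2FC 5.62, SE 0.54, adjusted p = 0.00018). Both were higher in all 4 mutants, replicate 3 was not the highest, and without it their log2FC values were 6.07 and 5.73. WT libraries held only a few counts of Krt8, so the size of its fold is loose. The beta-tubulin Tubb6 had 19, 14.5, 15 and 17.2 CPM in WT and 150, 155, 99.8 and 87.4 CPM in Mtm1-/y (log2FC 2.91, SE 0.20, adjusted p = 3.9e-05), and of 15 tubulin genes and partners 6 rose and 2 fell. Of 14 keratin and intermediate filament genes 8 rose and 1 fell.

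The MHC class II genes rose without exception. MHC class II molecules show peptides from the endosome to T helper cells and are made by macrophages, dendritic cells and B cells under the control of Ciita. Every one of the 8 genes tested in the class II list rose, at a background of 14.1%, with a median log2FC of 2.40. The list included Ciita and the protease gene Ctss, which was also counted among the lysosomal genes. RefSeq's table held 5 of the 8 genes. The 250 bases before the start are shown for the 3 of them whose windows held both motifs searched: H2-Aa at chr17:34287824-34288073 on the minus strand, H2-Eb1 at chr17:34305617-34305866 and H2-DMb1 at chr17:34152941-34153190 on the plus strand (GRCm38.p6). Capitals mark the core of the Y box, ATTGG, and the letters CTNGNAAC of the X box, on both strands, chosen after the sequences were seen.
H2-Aa: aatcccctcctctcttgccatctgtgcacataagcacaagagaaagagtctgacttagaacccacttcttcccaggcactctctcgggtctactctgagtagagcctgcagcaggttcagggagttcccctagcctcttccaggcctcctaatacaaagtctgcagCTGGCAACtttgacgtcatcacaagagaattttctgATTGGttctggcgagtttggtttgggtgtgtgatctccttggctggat
H2-Eb1: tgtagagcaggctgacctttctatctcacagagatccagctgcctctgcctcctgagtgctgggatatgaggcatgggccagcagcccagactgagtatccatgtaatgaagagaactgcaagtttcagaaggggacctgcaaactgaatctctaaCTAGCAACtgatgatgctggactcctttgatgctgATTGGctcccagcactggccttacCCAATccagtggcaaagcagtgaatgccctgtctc
H2-DMb1: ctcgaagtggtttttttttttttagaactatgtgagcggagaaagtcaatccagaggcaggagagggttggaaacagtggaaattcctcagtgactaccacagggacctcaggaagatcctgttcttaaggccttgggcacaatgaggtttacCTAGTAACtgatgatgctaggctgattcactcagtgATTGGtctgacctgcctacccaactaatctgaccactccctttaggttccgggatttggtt
CTNGNAAC began 84 bases before the start of H2-Aa, 94 before that of H2-Eb1 and 97 before that of H2-DMb1. ATTGG began at 48 in H2-Aa, at 59 and 35 in H2-Eb1 and at 61 in H2-DMb1. Over 32851 promoter windows 10.9% held CTNGNAAC and 33.8% held ATTGG. The window of Ctss, in the same list as the protease that trims the class II chaperone, held neither. Of 2 start sites listed for H2-DMa, the first held neither and the other held ATTGG alone, 198 bases before it.

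The class II genes stood at low levels in WT muscle and were higher in each mutant, with log2FC values from 1.66 for H2-DMa to 2.60 for Ciita. H2-Ab1 had 6.6, 5.8, 7.28 and 6.12 CPM in the WT and 44.4, 39.8, 26.3 and 41.9 CPM in the Mtm1-/y libraries (log2FC 2.56, SE 0.16, adjusted p = 3.1e-05), H2-Aa had 9.3, 7.16, 11.3 and 7.64 CPM in WT and 59.1, 49.8, 37 and 52.4 CPM in Mtm1-/y (log2FC 2.48 ± 0.18) and H2-Eb1 had 7.6, 6.83, 7.76 and 7.01 CPM in WT and 45.3, 36.9, 26 and 39.9 CPM in Mtm1-/y (log2FC 2.34 ± 0.16). Replicate 3 was the lowest of the mutants for H2-Ab1, H2-Aa and H2-Eb1 and still above every WT library. H2-DMa and H2-DMb1, which load the peptide, rose by 1.66 ± 0.14 and 2.15 ± 0.25 log2 units. Ciita, the master regulator, had 0.445, 0.477, 0.629 and 0.285 CPM in WT and 3.04, 2.93, 2.01 and 3.23 CPM in Mtm1-/y (log2FC 2.60, SE 0.26, adjusted p = 0.00023). Of 23 class I and interferon genes 3 rose and none fell, beside 14.1% and 14.9% of all genes, with a median of 0.12. The number that rose is thus near the share of all genes. The 3 were Ifitm3 (by 0.73 ± 0.09 log2 units), Tap2 (by 0.49 ± 0.11 log2 units) and Psmb10 (by 0.38 ± 0.10 log2 units).

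Macrophage markers were higher with them. Of 16 markers of macrophages and monocytes 15 rose and none fell, with a median of 1.66, and their summed level was 64.6 to 112 CPM in WT and 197 to 259 CPM in Mtm1-/y. The pore-forming protein Mpeg1 had 1.17, 1.58, 1.41 and 1.33 CPM in WT and 10.3, 7.08, 7.34 and 9.29 CPM in Mtm1-/y (log2FC 2.63, SE 0.17, adjusted p = 3.1e-05), and the lysosomal marker Cd68 had 2.5, 1.73, 2.64 and 1.52 CPM in WT and 14.4, 10.6, 11.5 and 5.79 CPM in Mtm1-/y (log2FC 2.33, SE 0.29, adjusted p = 0.00051). Lysozyme (Lyz2) rose from 18 ± 5.04 to 66.1 ± 8.15 CPM (log2FC 1.87, SE 0.17, adjusted p = 0.00016). Markers of other leukocytes were scarce. Neutrophil markers summed to 0.180 to 0.444 CPM and 0.575 to 2.30 CPM and those of T and NK cells to 0.612 to 0.992 CPM and 0.700 to 1.70 CPM, with no member of either list abundant enough to test. Of the dendritic cell markers 3 were tested, with a median log2FC of 0.48. Only Itgax, an integrin shared with macrophages, rose (by 3.18 ± 0.37 log2 units). The summed level of the dendritic list overlapped, at 13.9 to 15.8 CPM in WT and 13.1 to 16.6 CPM in Mtm1-/y. How much of the class II rise belongs to macrophages was not tested.

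**Figure D5:**
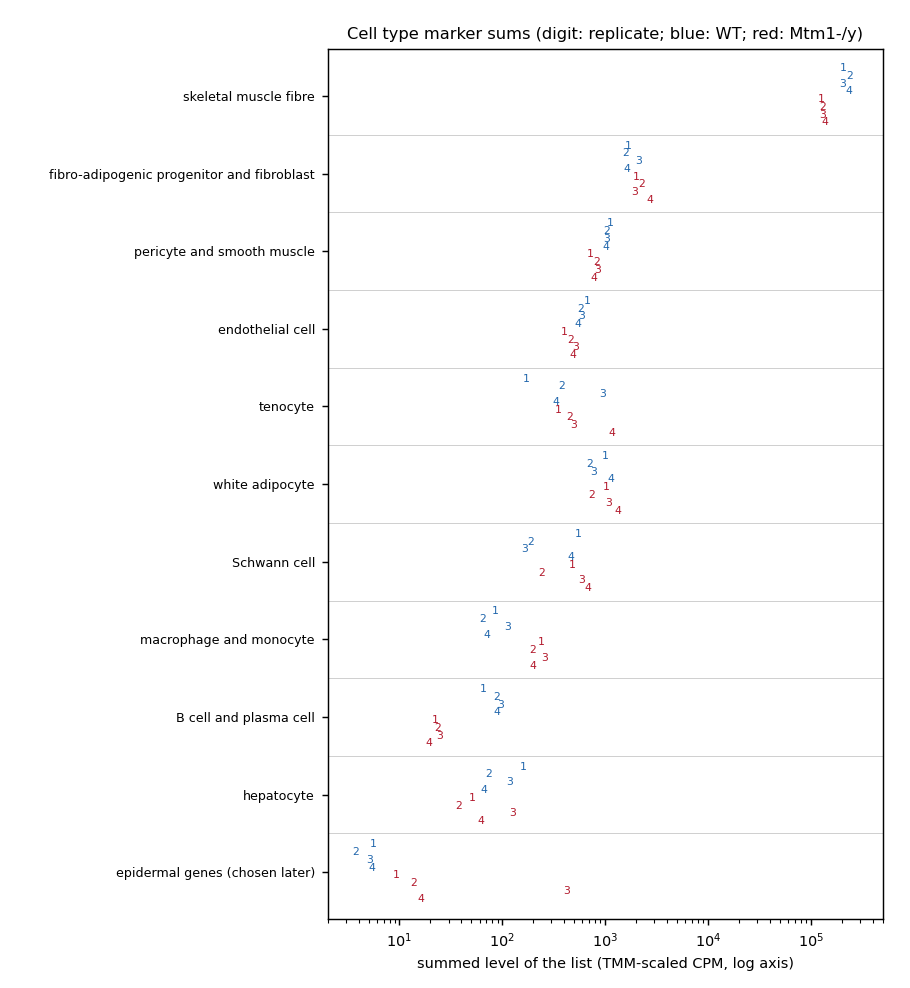
Summed level in CPM (log scale) of the marker genes of each cell type in the 8 gastrocnemius libraries, with digits for the replicate, blue for WT and red for Mtm1-/y. Macrophage sums run from 64.6 to 112 in WT and from 197 to 259 in Mtm1-/y, and muscle fibre sums are lower in every Mtm1-/y library.

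Chemokines and their receptors rose in 11 of 19 cases and fell in 3. The monocyte receptor Ccr2 had 1.61, 1.95, 2.25 and 1.3 CPM in the WT and 11.4, 10.3, 9.18 and 13.4 CPM in the Mtm1-/y libraries (log2FC 2.64, SE 0.18, adjusted p = 4.2e-05). The ligand Cx3cl1, a membrane-bound chemokine, had 1.73, 1.43, 2.16 and 1.81 CPM in WT and 21.5, 17.4, 11.1 and 22.6 CPM in Mtm1-/y (log2FC 3.34, SE 0.24, adjusted p = 4.4e-05). The interferon-induced ligand Cxcl10 stood at 0.0300 to 0.0835 CPM in WT, which is a few counts per library, and at 5.23, 1.81, 3.43 and 2.67 CPM in Mtm1-/y (adjusted p = 8.2e-05). The groups were separate for each of the 3. In the NF-kB and TNF receptor list 13 of 22 rose and 2 fell. Nfkb2, the precursor of the alternative pathway, had 12.2, 11.9, 12.2 and 12.3 CPM in WT and 64.5, 47.3, 38.9 and 45.3 CPM in Mtm1-/y (log2FC 2.01, SE 0.14, adjusted p = 4.2e-05), the inhibitor Nfkbie rose from 0.846 ± 0.193 to 4.73 ± 0.435 CPM and the decoy receptor Tnfrsf23 from 6.61 ± 0.6 to 28.4 ± 8.61 CPM. Complement genes rose in 13 of 17 cases and fell in none, with C1qa and C1qb up by 1.13 ± 0.17 and 1.26 ± 0.18 log2 units. Both of these were also counted among the macrophage markers.

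A single antibody gene fell against this pattern. Ighm, the heavy chain constant region of IgM (chr12:113418558-113422730), had 54.6, 68.4, 77 and 74.2 CPM in the WT and 5.97, 5.35, 8.26 and 4.95 CPM in the Mtm1-/y libraries (log2FC -3.48, SE 0.17, adjusted p = 2.1e-05). The groups were far apart. The other 10 B cell and plasma cell markers, which include the light chain constant gene Igkc and Ebf1, summed to 10.8 to 19 CPM in WT and 14.5 to 18.4 CPM in Mtm1-/y, and none of the 4 of them that were tested passed the threshold.

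Matrix genes rose in a subset. Of 23 genes of matrix remodelling 11 rose and none fell, with a median of 0.90, and 7 rose without WT replicate 2. Cilp, an extracellular protein that binds TGF-beta, had 27.4, 30.9, 62.6 and 43.5 CPM in the WT and 556, 373, 349 and 607 CPM in the Mtm1-/y libraries (log2FC 3.52, SE 0.29, adjusted p = 9.5e-05). Periostin (Postn) had 28, 31.1, 62.5 and 25.1 CPM in WT and 361, 157, 309 and 267 CPM in Mtm1-/y (log2FC 2.90, SE 0.34, adjusted p = 0.00042), and the protease inhibitor Timp1 had 1.45, 1.87, 2.76 and 2.03 CPM in WT and 25.1, 26.3, 22.4 and 9.13 CPM in Mtm1-/y (log2FC 3.35, SE 0.34, adjusted p = 0.00023). WT replicate 3 was the highest WT library for each of them and remained below the mutants. Of 20 collagen chains 5 rose and none fell. The nonfibrillar chain Col8a1 had 10.4, 11.8, 28.6 and 10.9 CPM in WT and 112, 71.7, 94.2 and 95.5 CPM in Mtm1-/y (log2FC 2.59, SE 0.32, adjusted p = 0.00051), and the fibrillar chains Col3a1 and Col5a2 rose by 0.72 ± 0.13 and 0.83 ± 0.13 log2 units. Fibronectin (Fn1) rose by 1.12 ± 0.23 log2 units.

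Adhesion genes of the fibre surface were divided. Of 25 integrin and focal adhesion genes 8 rose and 6 fell, and 5 rose without WT replicate 2. Itgb1, the common beta chain, rose from 312 ± 22.4 to 438 ± 42.5 CPM (log2FC 0.49, SE 0.09, adjusted p = 0.0029) and its muscle partner Itga7 by 0.66 ± 0.12 log2 units. Talin 2 (Tln2) fell (log2FC -0.73 ± 0.08). Of 17 genes of the dystrophin-glycoprotein complex 1 rose and 7 fell, with a median of -0.17 that became 0.17 with library totals. The number that fell was 3 without WT replicate 2 or 4 and 4 without Mtm1-/y replicate 2, 3 or 4. Nos1, the nitric oxide synthase bound to the complex, fell from 44.9 ± 9 to 22.9 ± 3.84 CPM (log2FC -0.97, SE 0.16, adjusted p = 0.002), and delta-sarcoglycan (Sgcd) rose by 0.77 ± 0.12 log2 units.

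Markers of the other resident cells moved less than those of macrophages. Fibroblast and progenitor markers rose in 6 of 12 cases, but in 3 without WT replicate 2 or 4 and in 4 without Mtm1-/y replicate 4. Their sums were 1591 to 2137 CPM in WT and 1921 to 2696 CPM in Mtm1-/y. Endothelial markers fell in 3 of 10 cases, 5 without Mtm1-/y replicate 2, with sums of 544 to 669 CPM and 403 to 512 CPM. Flt1, a receptor for VEGF, fell from 86.7 ± 3.39 to 50.2 ± 2.75 CPM (log2FC -0.79, SE 0.06, adjusted p = 8.2e-05). Pericyte and smooth muscle markers fell in 4 of 9 cases and in 2 without WT replicate 4 or without Mtm1-/y replicate 1, 2 or 4. With library totals the median of the endothelial markers was -0.02 and that of the pericyte markers 0.06.

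How many fat and liver genes passed the threshold depended on single libraries. White adipocyte markers rose in 10 of 18 cases, in 6 without WT replicate 1 or 2 or without Mtm1-/y replicate 4, and their sums overlapped (711 to 1144 CPM and 742 to 1317 CPM). Of these 18 markers 16 had a positive log2FC, with a median of 0.98. Hepatocyte markers fell in 3 of 15 cases with all libraries in 12 without Mtm1-/y replicate 3 and in 1 without WT replicate 1 or 3 or Mtm1-/y replicate 1, 2 or 4. Tendon markers were high in WT replicate 3 (956 CPM) and Mtm1-/y replicate 4 (1174 CPM) against 172 to 497 CPM in the other libraries, and Scx was the only one of 8 that rose. Of 3 tested heart muscle markers 2 rose, and the defining marker Nkx2-5 was at 0 in every library.

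Genes were also sorted by their median level in the WT diaphragm, heart and liver libraries. The skeletal muscle class took genes at 5 CPM or more in diaphragm and at least 4 times the level of heart and of liver. The heart class was built likewise from heart. The classes rest on whole tissues, and the skeletal muscle class also held Ighm. Of 277 genes of the skeletal muscle class 33 were called higher and 21 lower, or 11.9% and 7.58%, next to 4.84% and 1.79% of all genes. Of 219 genes of the heart class 26 were called higher and 12 lower. Of 4908 genes at 5 CPM or more in each of these tissues, with levels less than 2 times apart, 47 and 13 were called, or 0.958% and 0.265%. The shares of all genes include genes without this floor, and the called rises had a median level of 1.76 CPM. The shares of the classes and of all genes are therefore not like for like. Trp63, a p53 relative of the skeletal muscle class, rose from 9.12 ± 1.29 to 30.4 ± 2.7 CPM (log2FC 1.74, SE 0.11, adjusted p = 3.3e-05), and Hrasls of the same class fell from 82.7 ± 5.3 to 36.9 ± 3.05 CPM (log2FC -1.16, SE 0.08, adjusted p = 3.7e-05). In the heart class Plekhh1 rose by 2.39 ± 0.20 log2 units and the nucleotidase Nt5c1a fell (log2FC -2.39 ± 0.19). Among 1070 long noncoding genes 54 were called higher and 66 lower, or 11.2% in all, beside 6.34% of protein-coding genes.

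The same contrast in the diaphragm of mice of both genotypes served as a comparison, with 4 WT and 3 Mtm1-/y diaphragm libraries. In a joint fit of 17509 genes 49, or 0.280%, differed in the genotype effect between the muscles at an adjusted p under 0.05, and 2249 did at an unadjusted p under 0.05. The count ranged from 5 without Mtm1-/y diaphragm replicate 4 to 117 without WT diaphragm replicate 3, and the diaphragm libraries held between 294 and 33827 CPM of the liver gene Alb. Amd1, Smox, Mfsd7a and Gm11512 passed in each of the 15 fits that left out a library, and the last 2 were picked after their values were seen. Amd1 had a log2FC of -3.20 in the gastrocnemius and -0.48 in the diaphragm, a difference of -2.70 (SE 0.30, adjusted p = 0.0043). For Smox the values were -1.82 and -0.05, a difference of -1.76 (SE 0.21, adjusted p = 0.0044). The transporter gene Mfsd7a rose by 2.0 in the gastrocnemius and had 0.02 in the diaphragm (difference 1.99, SE 0.23, adjusted p = 0.0044). Gm11512 had -0.64 and -4.18 (difference 3.54, SE 0.32, adjusted p = 0.0008). Whether both muscles came from the same mice is not given in the sources used here. Mtm1 had -2.07 and -2.26, and its difference of 0.20 had an SE of 0.18.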

How the data were processed

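RNA from whole gastrocnemius muscles was sequenced with strand-specific poly(A) libraries. The authors trimmed reads with cutadapt 1.10, used STAR 2.5.3a for alignment to mm10, and deposited raw counts per Ensembl gene, made from uniquely aligned reads with HTSeq 0.6.1p1. From these counts the 4 Mtm1-/y and 4 WT gastrocnemius libraries were fitted alone. Genes passed edgeR's filterByExpr with a minimum count of 10, TMM factors were computed, and the quasi-likelihood F test of edgeR 4.0.16 (R 4.3.3) was run on 15456 genes. The procedure was tested on simulated data. Calls needed an adjusted p under 0.05 and a log2 fold change beyond 1. The common biological coefficient of variation was 0.171. The depth of 29641256 to 38588917 counts limits precision for genes below about 1 CPM. Shares of counts were compared by exact permutation tests over libraries, adjusted over 4 shares.

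The muscle and diaphragm contrasts were set against each other by an interaction term over 15 libraries. Alternatives were other scalings, no filter, DESeq2 1.42.0, limma 3.58.1 with voom, a fit of all 30 libraries, a replicate block and each library left out in turn. Named genes were those the paper discusses, the 15 largest rises and falls without overlap at a mean of at least 5 CPM, up to 4 members with the smallest p per gene list, whole families in some lists and the leading genes of tissue classes. Genes picked in other ways are said to be, and some genes that the rule names are not reported here. The gene lists and members were chosen with earlier results of these data known. Symbols came from GENCODE M21 and promoter sequences from RefSeq's GRCm38.p6 table. The letters searched in the promoters were chosen after the sequences were seen.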

Additional observations from a re-analysis of the deposited data

Results flagged for a closer look

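Among the values of the genes that the naming rule picks and 4 shares, 628 groups of 4 libraries were searched for a library whose distance to the nearest of the others exceeded Dixon's limit, and 39 were found, where chance alone gives about 1 in 20 groups.

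Mtm1-/y replicate 3 was the highest mutant for Dsp (120 CPM, others 1.68 to 9.18), Perp (75.0 CPM, others 3.81 to 4.31), Arg1 (3.01 CPM, others 0.0605 to 0.168) and the liver gene Ahsg (4.33 CPM, others 0.485 to 0.695). It was the lowest mutant for the slow and cardiac myosins Myh7 (226 CPM, others 864 to 963) and Myh6 (47.1 CPM, others 180 to 204), for the micropeptide gene Gm34302 (0.921 CPM, others 2.32 to 2.54) and for Speg (270 CPM, others 326 to 334). WT replicate 3 was the highest WT library for the matrix genes Col8a1 (28.6 CPM, others 10.4 to 11.8), Fn1 (197 CPM, others 100 to 113), Postn (62.5 CPM, others 25.1 to 31.1) and Pdgfrl (14.4 CPM, others 6.82 to 7.57) and for Lyz2 (25.5 CPM, others 15 to 16.6). The same library had the highest share of mitochondrially encoded counts, 7.42% against 5.82 to 6.04%, and the lowest Chrnb1 (44.4 CPM, others 60.6 to 63.0).

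Mtm1-/y replicate 1 was the highest mutant for Hspb7 (2849 CPM, others 1549 to 1756), Hdac4 (69.7 CPM, others 48.2 to 50.5), Scx (14.8 CPM, others 5.44 to 6.53) and Kcna7 (39.8 CPM, others 33.2 to 33.6). Mtm1-/y replicate 2 was the highest for Sod2 (188 CPM, others 146 to 153), Uqcrc1 (700 CPM, others 610 to 625) and Ulk2 (119 CPM, others 110) and the lowest for Trp63 (26.4 CPM, others 31.3 to 32.2). Mtm1-/y replicate 4 was the highest for Pdgfrl (26.8 CPM, others 15.6 to 16.5), Cyp2e1 (28.9 CPM, others 11.4 to 12.8) and Angptl4 (29.9 CPM, others 18.3 to 20.1) and the lowest for Azin1 (71.8 CPM, others 129 to 138), Canx (130 CPM, others 146 to 148) and Itga4 (7.40 CPM, others 8.65 to 8.89).

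In WT, replicate 1 was the highest for Cyp2e1 (12.8 CPM, others 5.55 to 5.74), Atp2a3 (20.3 CPM, others 14.9 to 15.3), Notch3 (54.9 CPM, others 44.7 to 46.4), Peg10 (2.20 CPM, others 2.01 to 2.03) and Cxcl10 (0.0835 CPM, others 0.0300 to 0.0367). WT replicate 2 was the highest for Ttn (17111 CPM, others 14295 to 14477) and Ndufb4 (19 CPM, others 16.9 to 17.2). WT replicate 4 was the highest for Rpl3l (569 CPM, others 454 to 463) and the lowest for C130080G10Rik (17 CPM, others 23.6 to 24.7) and Itgax (0.0317 CPM, others 0.139 to 0.150).

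For 11 named genes the genotype effect differed between gastrocnemius and diaphragm by the interaction term of edgeR's quasi-likelihood test, adjusted over 17509 genes. The effect in the gastrocnemius minus that in the diaphragm was 3.79 (SE 0.63, adjusted p = 0.032) for Sln, 4.56 (SE 0.69, adjusted p = 0.025) for Cxcl10, 4.29 (SE 0.66, adjusted p = 0.028) for Gdf5, 2.16 (SE 0.40, adjusted p = 0.047) for Gadd45a and 1.75 (SE 0.29, adjusted p = 0.032) for Plekhh1, all on the log2 scale. It was -2.70 for Amd1 and -1.76 for Smox, and -4.26 (SE 0.72, adjusted p = 0.032) for Fgfbp1, which had 0 to 13 counts in each diaphragm library and was too low to be tested there, -2.59 (SE 0.44, adjusted p = 0.032) for Cdh4, -2.09 (SE 0.33, adjusted p = 0.029) for Slc2a3 and -1.88 (SE 0.31, adjusted p = 0.032) for Actr3b. Amd1 and Smox passed in all 15 fits that left out a library. Of the others, Cxcl10 passed in 9, Gdf5, Slc2a3 and Actr3b in 7, Sln and Plekhh1 in 4, and Gadd45a, Fgfbp1 and Cdh4 in 3.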

How the results depend on the processing

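The numbers of genes called stayed within 1.5 times of 748 and 276 with DESeq2's size factors, without a filter, with DESeq2 itself, with voom, in a fit of all 30 libraries and in every fit that left out a library (673 to 856 higher, 237 to 373 lower). They were 1600 and 128 with library totals, which by construction do not remove the median shift of 0.34, and 2173 and 2306 with the adjusted p alone. With library totals 44 named genes were no longer past the adjusted p of 0.05, and Mtmr2 (0.12), Mtmr6 (0.04), Echs1 (0.04), Hadh (0.07) and Sgcb (0.12) turned positive. In the fit of all 30 libraries 88 named genes were no longer past it, the number of fast sarcomere genes that fell went from 15 to 3, that of triad genes from 17 to 1 and that of fibre markers from 9 to 0. The cause was not tested. Each fit that left out a library moved 5 to 14 named genes above an adjusted p of 0.05, of which the text gives Chrne, Mtmr2, Perp and mt-Cytb.

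Deviations of same-number libraries from their group mean had r = -0.0136, 0.104, 0.0464 and 0.0076 for the 4 pairs. Pairs of unlike number had -0.269 to 0.24. The labels do not say whether libraries of the same number belong together, so these values do not settle whether they are paired. A replicate block gave 697 higher and 299 lower.

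The 49 genes that differed between muscles were 27 without a filter, 44 with size factors and 378 with DESeq2. Leaving out a library gave 5 to 117: 12, 6, 17 and 10 without WT gastrocnemius replicates 1 to 4, 12, 19, 41 and 27 without those of Mtm1-/y, 9, 14, 117 and 6 without WT diaphragm 1 to 4, and 16, 49 and 5 without Mtm1-/y diaphragm 1, 2 and 4. The cause was not tested.

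With 3 against 4 libraries no permutation p falls below 0.0571, so 3 shares lost their call by construction. Their differences stayed at -21.6 to -17 points for Myh4, 2.20 to 4.08 for Chrng (7.33 without length) and 0.0753 to 0.097 for ribosomal proteins, and at -0.993 to -0.392, the latter without WT replicate 3, for mitochondrially encoded genes (-0.77 with all libraries).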
